A study of Mus musculus with 6 samples.

Results

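The transcripts of 9 genes of oxidant defence were followed in mouse blastocysts that had been cultured with extracellular vesicles from human Fallopian tubes. They were chosen by name, as the rows of the deposited table whose Ensembl identifiers map to the superoxide dismutases *Sod1* and *Sod2*, the catalase gene *Cat*, the stress sensor pair *Nfe2l2* and *Keap1*, and the targets *Hmox1*, *Nqo1*, *Fth1* and *Ftl1*. These were 9 of 55774 genes in the table, and the rule itself uses names and no measured value. Wild-type embryos were taken from the oviducts of ICR females of 6 to 8 weeks and grown for 75 h in CZB medium. One group received vesicles from women with endometriosis (oEV-EMT) and the other vesicles from women without it (oEV-ctrl). Both groups were thus exposed to human vesicles, and no vesicle-free group was sequenced. The labels give uterine fibroids as the condition of the control donors whereas the study's methods give cervical intraepithelial neoplasia. Each group had 3 libraries, and each library was a pool of 10 blastocysts, so differences between single embryos cannot be seen. Neither source says which donors' vesicles went to which pool, and p-values therefore measure only the spread between pools.

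Superoxide dismutases turn superoxide into hydrogen peroxide, SOD1 with copper and zinc mainly in the cytosol and SOD2 with manganese in mitochondria. Catalase, a haem enzyme of peroxisomes, then breaks the peroxide down to water and oxygen. NRF2, the product of *Nfe2l2*, is a transcription factor that KEAP1 holds for degradation until oxidants or electrophiles modify KEAP1. Freed NRF2 acts on antioxidant response elements in genes such as *Hmox1*, whose product opens haem and releases its iron, and *Nqo1*, which encodes a quinone reductase. Ferritin, built from heavy (*Fth1*) and light (*Ftl1*) chains, stores iron in a form that does not feed radical chemistry.

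The ferritin messengers carry a short hairpin near their start, the iron-responsive element, by which iron regulatory proteins block translation when iron is scarce. These elements are shown because ferritin protein can change without a change in the RNA measured here. A search of 1 annotated coding transcript per gene found 1 element in each ferritin messenger, in the 5′ UTR of exon 1, with the loop letters in capitals. The *Fth1* element lies at chr19:9982733-9982759 on the plus strand and the *Ftl1* element at chr7:45459780-45459806 on the minus strand (GRCm38). The element of the iron exporter gene *Slc40a1*, in its 5′ UTR at chr1:45925466-45925492 on the minus strand, is given beside them.
Fth1: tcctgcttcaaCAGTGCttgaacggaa
Ftl1: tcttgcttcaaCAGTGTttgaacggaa
Slc40a1: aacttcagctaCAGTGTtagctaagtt

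Promoters were searched for TGACNNNGC, the core of the antioxidant response element, on both strands. RefSeq windows (GRCm38.p6) from 250 bases before to 50 bases after the start site were matched for 8 of the 9 genes, and *Hmox1* was the gene not matched. The core occurred in 2 of the 9 windows of these 8 genes, those of *Sod1* and *Nfe2l2*, and in 12.4% of the 32851 windows of all genes. Sequence further from the start site was not searched, so a window without a match does not show that a gene lacks the element. The stretches around both matches are shown with the core in capitals, which in *Sod1* reads on the opposite strand. They lie at chr16:90220696-90220725 on the plus strand for *Sod1* and at chr2:75704884-75704913 on the minus strand for *Nfe2l2*. A match of letters is a description and not a bound site.
Sod1: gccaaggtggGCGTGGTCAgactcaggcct
Nfe2l2: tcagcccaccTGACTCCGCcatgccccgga

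The deposited values are FPKM, which divide the fragments of a gene by its transcript length and by the depth of the library, and they sum to between 1293175 and 1551567 in a library. Read totals are not given, but the smallest step between low values corresponded to a depth that differed by 2.07 times between the deepest library, oEV-EMT 1, and the shallowest, oEV-ctrl 1. If 1 step is 1 fragment and the longest coding transcript is the one expressed, *Nqo1* rested on 63.5 to 317 fragments in a library and *Ftl1* on 95925 to 211328. The labelled tissue was checked against its markers. All 9 trophectoderm markers were at 1 FPKM or more in every library, with summed levels of 4587 to 6378 in oEV-EMT and 5193 to 5990 in oEV-ctrl. Epiblast markers summed to 107 to 148 FPKM in oEV-EMT and 60.3 to 104 in oEV-ctrl, which do not overlap, and primitive endoderm markers to 144 to 277 and 196 to 248. Gene by gene, 3 of the 8 epiblast markers were higher without overlap, against 18.1% of all genes. Of the 8, 4 lay above and 4 below the median of all genes. Of 11 markers of cumulus, oviduct, blood and macrophage cells, 6 stayed below 0.1 FPKM in all libraries, 5 of them listed at 0. Among the 6 was *Ptprc*, the pan-leukocyte marker. The 11 summed to 7.72 to 15.7 FPKM in oEV-EMT and 4.72 to 7.89 in oEV-ctrl. The part of cell composition in the values that follow was not tested, and in pooled embryos fewer cells of a type and less RNA per cell cannot be told apart.

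All 9 genes passed the filter of 1 FPKM in at least 3 libraries, as did 11924 genes in all. None of the 9 passed both thresholds, which asked for an adjusted p of 0.05 or less together with a log2 fold change of 1 or more in either direction, and 0% of all genes tested passed them. The smallest adjusted p of all genes was 0.0934 (limma). A p that misses the threshold does not show that levels were equal, and the intervals given for each gene show the sizes that these data allow. In *Cat*, *Nfe2l2*, *Hmox1* and *Nqo1* every oEV-EMT library was above every oEV-ctrl library. These were 4 of 9 genes, where 18.1% of all genes were higher without overlap. *Keap1* alone was lower without overlap, 1 of 9 against 4.34% of all genes. In either direction these were 5 of 9, against 22.4% of all genes, and the other 4 overlapped. Unadjusted p was at most 0.05 for *Cat*, *Hmox1* and *Nqo1*, 3 of 9 and all higher in oEV-EMT, and for 15.4% of all genes, of which 12.8% were higher and 2.55% lower. The median log2 fold change was 0.29 over the 9 genes and 0.17 over all genes tested. After median-of-ratios scaling, which moved the median of all genes to 0.01, 3 of the 9 were higher without overlap (9.94% of all genes) and 3 lower (10.2%).

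**Figure D1:**
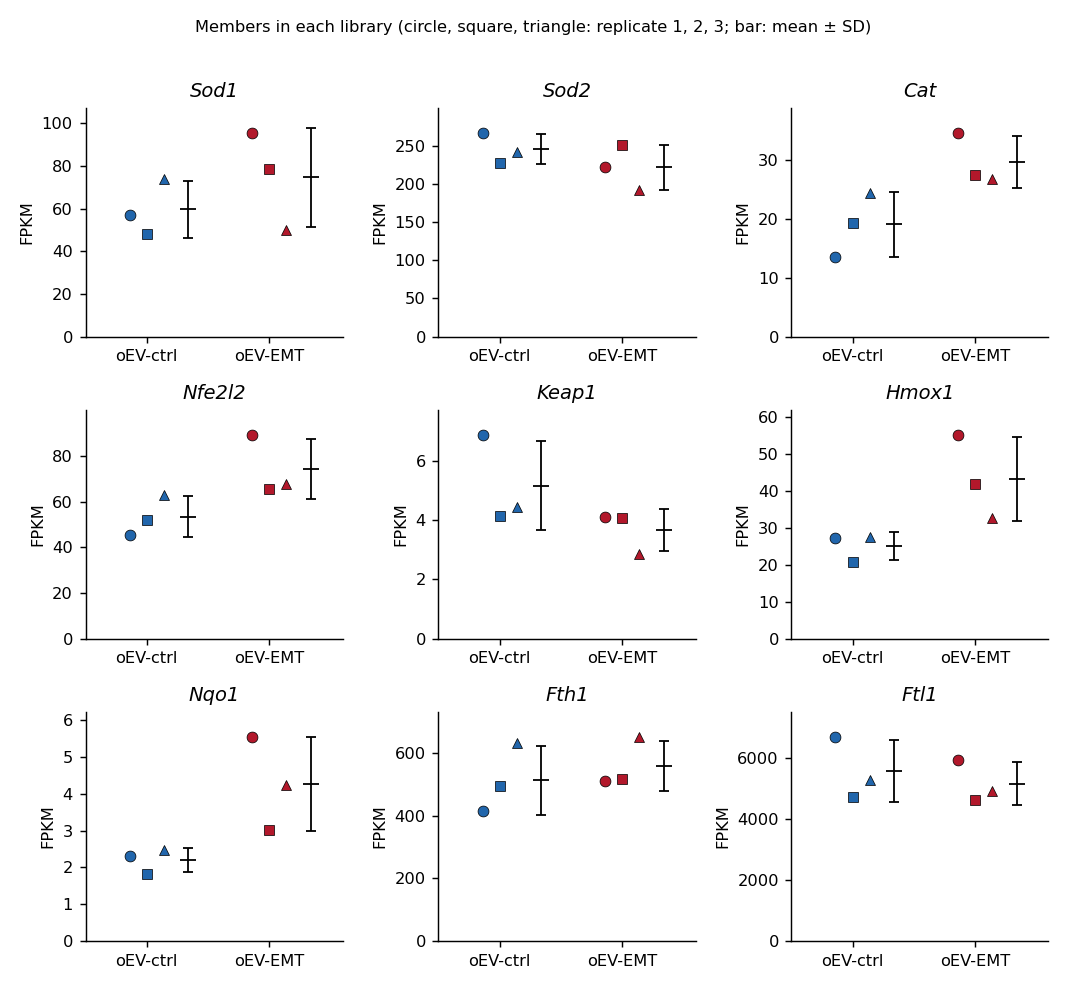
FPKM of the 9 genes in each library, with oEV-ctrl in blue and oEV-EMT in red. Symbols mark the replicate, bars give the mean ± SD of 3 libraries, and each axis starts at 0. The groups are apart in *Cat*, *Nfe2l2*, *Hmox1* and *Nqo1*, nearly touch in *Keap1*, and overlap in the other panels.

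The plot of FPKM by library shows how widely the levels of the 9 genes were spread. *Ftl1* was the highest with a mean of 5357 FPKM over the 6 libraries, above 99.8% of tested genes, followed by *Fth1* with 537 and *Sod2* with 234. *Sod1* (67.2) and *Nfe2l2* (63.8) came next and kept this order in 4 of 6 libraries, so these neighbours do not differ beyond their spread. *Hmox1* (34.3) was above *Cat* (24.4) in every library, although their ranges overlapped. *Keap1* (4.42) and *Nqo1* (3.23) were the lowest and kept their order in 4 of 6 libraries. FPKM are per length, so these levels can be compared roughly between genes. The comparison rests on the transcript lengths used and is limited where genes share sequence with others. *Ftl1* held 74.7% and *Sod1* 86.1% of the FPKM summed with such genes.

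*Sod1* (ENSMUSG00000022982, chr16:90220754-90226329) stood at 95.7, 78.4 and 49.97 FPKM in oEV-EMT and at 57.0, 48.0 and 74.0 in oEV-ctrl. The groups overlapped, since the lowest oEV-EMT value lay below the middle oEV-ctrl value. Mean levels were 74.7 ± 23.1 and 59.6 ± 13.2 FPKM (SD, n = 3 each), and limma gave a log2 fold change of 0.29 with a 95% interval from -0.31 to 0.90 (adjusted p = 0.636). It was 0.09 without oEV-EMT replicate 1 and 0.55 without oEV-EMT replicate 3, and 0.03 with upper quartile scaling. A pseudogene, *Gm8566*, shares its sequence, and *Sod1* held 86.1% of their summed FPKM.

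*Sod2* (ENSMUSG00000006818, chr17:13006846-13040063) gave 223, 251 and 192 FPKM in oEV-EMT and 267, 228 and 242 in oEV-ctrl. These values interleaved, and the means were 222 ± 29.8 and 246 ± 20.1 (SD, n = 3 each). The log2 fold change was -0.15, with an interval from -0.57 to 0.27 (limma, adjusted p = 0.727). After median-of-ratios scaling it was -0.35 and the groups no longer overlapped (limma, adjusted p = 0.496). The mitochondrial enzyme's messenger was higher in level than the cytosolic one in all 6 libraries, by a ratio within a library of 2.33, 3.20 and 3.83 in oEV-EMT and 4.69, 4.74 and 3.28 in oEV-ctrl.

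*Cat* (ENSMUSG00000027187, chr2:103453849-103485160) reached 34.7, 27.6 and 26.8 FPKM in oEV-EMT and 13.5, 19.3 and 24.4 in oEV-ctrl. All oEV-EMT values were above all oEV-ctrl values, and the nearest pair was 2.40 FPKM apart. The mean was 29.7 ± 4.36 against 19.1 ± 5.46 (SD, n = 3 each), a ratio of 1.56. The log2 fold change of 0.64, with an interval from 0.09 to 1.20, did not pass after adjustment (limma, adjusted p = 0.267). Without oEV-ctrl replicate 1, the lowest library, it was 0.43.

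*Nfe2l2* (ENSMUSG00000015839, chr2:75675513-75704641) was measured at 89.3, 65.4 and 67.6 FPKM in oEV-EMT and at 45.5, 52.1 and 62.8 in oEV-ctrl. The groups did not overlap, with means of 74.1 ± 13.2 and 53.5 ± 8.77 (SD, n = 3 each) and a ratio of 1.39. The log2 fold change was 0.46, with an interval from -0.02 to 0.94 (limma, adjusted p = 0.343). After median-of-ratios scaling it was 0.27 and the groups overlapped (limma, adjusted p = 0.603).

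*Keap1* (ENSMUSG00000003308, chr9:21229730-21239361) had values of 4.10, 4.08 and 2.86 FPKM in oEV-EMT and of 6.88, 4.14 and 4.45 in oEV-ctrl. The groups did not overlap, but by only 0.0428 FPKM, about 3.76 fragments at the derived depth, where the nearest oEV-ctrl library held about 364. The means were 3.68 ± 0.709 and 5.15 ± 1.499 (SD, n = 3 each). The difference on the log2 scale was -0.38, with an interval from -0.93 to 0.17 (limma, adjusted p = 0.488), and -0.19 without oEV-ctrl replicate 1. An antisense gene, *Gm16754*, shares 7.78% of the *Keap1* stretches of 50 bases, and since the sources used here do not state strand, reads from that stretch cannot be told apart. Summed over both genes, FPKM were 4.35, 4.50 and 3.16 against 7.52, 4.46 and 4.84, and the groups overlapped.

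*Hmox1* (ENSMUSG00000005413, chr8:75093621-75100589) lay at 55.3, 41.9 and 32.8 FPKM in oEV-EMT and at 27.3, 20.9 and 27.6 in oEV-ctrl. The groups were 5.22 FPKM apart at their nearest libraries, with means of 43.3 ± 11.3 and 25.2 ± 3.78 (SD, n = 3 each) and a ratio of 1.72. The log2 fold change was 0.73, with an interval from 0.20 to 1.27 (limma, adjusted p = 0.214), the smallest adjusted p of the 9 genes. *Hmox2*, the constitutive haem oxygenase, was at 24.8, 27.6 and 23.1 FPKM in oEV-EMT and at 19.7, 18.3 and 35.8 in oEV-ctrl. Its groups overlapped, with a log2 fold change of 0.09 (limma, adjusted p = 0.890).

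*Nqo1* (ENSMUSG00000003849, chr8:107388225-107403206) was the lowest in level, at 5.55, 3.02 and 4.24 FPKM in oEV-EMT and at 2.30, 1.83 and 2.47 in oEV-ctrl. The groups did not overlap, with means of 4.27 ± 1.27 and 2.20 ± 0.332 (SD, n = 3 each) and a ratio of 1.94. The log2 fold change of (FPKM + 1) was 0.70, with an interval from 0.16 to 1.24 (limma, adjusted p = 0.232), and this scale understates the change of so low a gene. With a pseudocount of 0.1 it was 0.89 (limma, adjusted p = 0.235), the highest of all alternatives. The lowest was 0.47, with library quality weights, and upper quartile scaling gave 0.50.

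The heavy ferritin chain *Fth1* (ENSMUSG00000024661, chr19:9980598-9985098) was at 511, 517 and 652 FPKM in oEV-EMT and at 415, 494 and 632 in oEV-ctrl. The ranges overlapped almost throughout, and the log2 fold change was 0.14, with an interval from -0.33 to 0.60 (limma, adjusted p = 0.785). Its sign turned with median-of-ratios scaling, which gave -0.06. The light chain *Ftl1* (ENSMUSG00000050708, chr7:45457944-45459884) was at 5939, 4614 and 4913 FPKM in oEV-EMT and at 6687, 4728 and 5260 in oEV-ctrl. Its log2 fold change was -0.10, with an interval from -0.54 to 0.33 (limma, adjusted p = 0.829), and 0.04 without oEV-ctrl replicate 1. After median-of-ratios scaling it was -0.30, and oEV-EMT was lower without overlap (limma, adjusted p = 0.614). *Ftl1* shares sequence with 12 other genes and held 74.7% of their summed FPKM, so its level is uncertain.

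**Figure D2:**
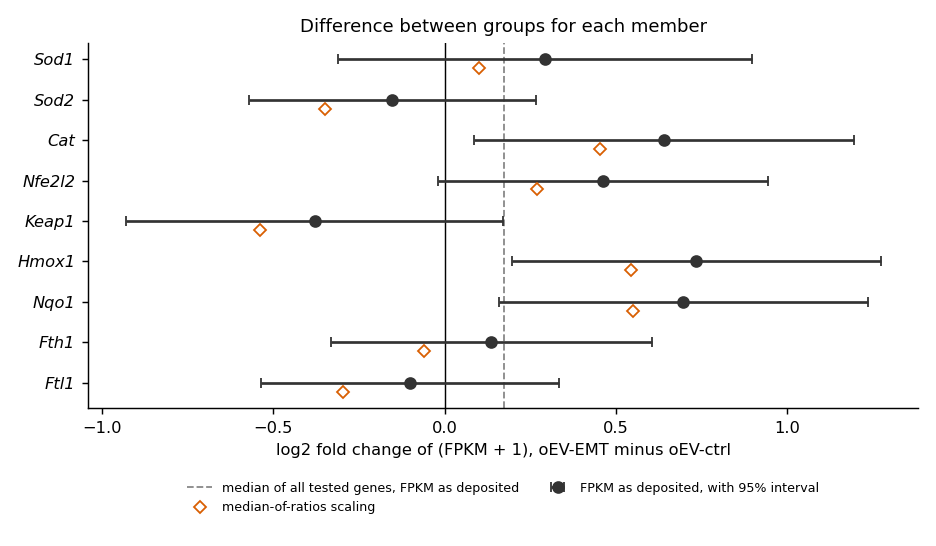
Log2 fold change of (FPKM + 1), oEV-EMT minus oEV-ctrl, for the 9 genes. Filled points with bars are the deposited FPKM with 95% intervals from limma, open diamonds the value after median-of-ratios scaling, and the dashed line the median of all tested genes, 0.17. The intervals of *Cat*, *Hmox1* and *Nqo1* lie above 0 and those of the other 6 genes include it.

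The plot of differences sets the genes beside the median of all genes. The intervals are wide with 3 pools a group, and that of *Sod1*, from -0.31 to 0.90, holds values of both signs. The 4 genes that were higher without overlap were *Nfe2l2*, its targets *Hmox1* and *Nqo1*, and *Cat*. In all 4 the highest value was that of the same library, oEV-EMT 1. Without it the log2 fold changes were 0.32 for *Nfe2l2*, 0.55 for *Hmox1*, 0.53 for *Nqo1* and 0.53 for *Cat*. The targets *Fth1* and *Ftl1* overlapped in the deposited FPKM, and *Nfe2l2* overlapped after median-of-ratios scaling.

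Ratios between 2 genes within a library do not depend on the scaling between libraries. The ratio of *Nfe2l2* to *Keap1*, the factor to its inhibitor, was 21.8, 16.03 and 23.6 in oEV-EMT and 6.61, 12.6 and 14.1 in oEV-ctrl. All oEV-EMT values were above all oEV-ctrl values, by 0.94 on the log2 scale or 1.91-fold. The exact two-sided permutation test gave p = 0.1, the smallest that 3 against 3 allows, and 0.25 after adjustment over the 5 ratios compared. Without oEV-ctrl replicate 1 the log2 difference was 0.60. The other 4 ratios overlapped between the groups. *Hmox1* to *Nfe2l2* differed by 0.29 on the log2 scale and *Nqo1* to *Nfe2l2* by 0.46 (exact permutation p = 0.2 each). The first was 0.17 without oEV-ctrl replicate 2, and the second 0.23 with a pseudocount of 1. *Sod2* to *Sod1* differed by -0.45 (exact permutation p = 0.2) and *Fth1* to *Ftl1* by 0.24 (exact permutation p = 0.6). Without oEV-EMT replicate 1, *Sod2* to *Sod1* differed by -0.25.

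**Figure D3:**
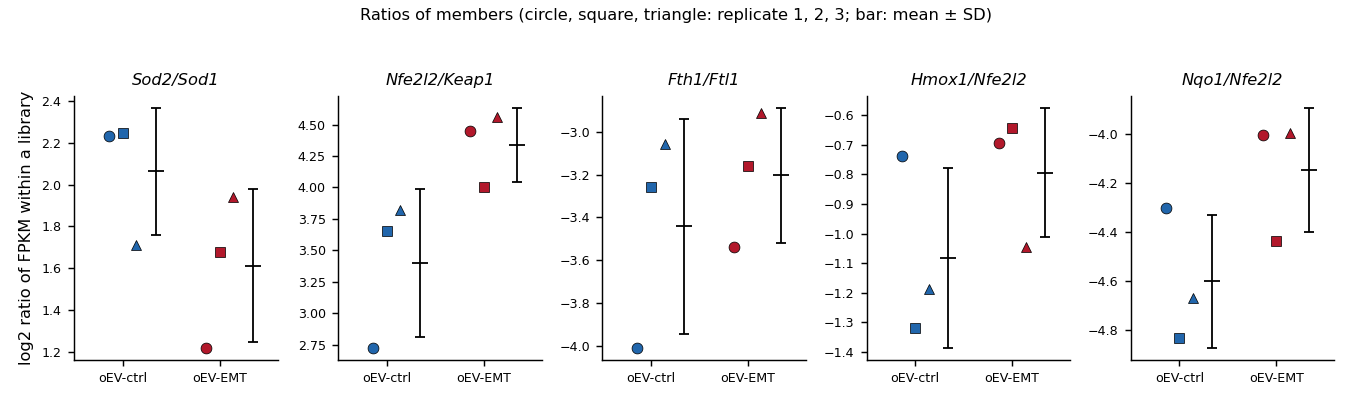
Log2 ratio of FPKM of 2 genes within each library for 5 pairs, with oEV-ctrl in blue and oEV-EMT in red and bars for the mean ± SD of 3 libraries. Each panel has its own axis, which does not start at 0. The groups are apart for *Nfe2l2* to *Keap1* and overlap for the other 4 pairs.

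The plot of ratios shows the lowest *Nfe2l2* to *Keap1* value, 6.61, in oEV-ctrl 1, the library with the lowest *Nfe2l2* and the highest *Keap1*.

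Other genes of the same pathways were taken from 6 lists, which together held 102 genes beside the 9, of which 87 were tested. None passed both thresholds, and the smallest adjusted p was 0.118 (limma). Of the 87, unadjusted p (limma) was at most 0.05 for 15 genes that were higher and 1 that was lower. Of all genes tested, 12.8% were higher and 2.55% lower by this measure. Higher without overlap were 19 genes (21.8%, against 18.1% of all genes) and lower 1 (1.15%, against 4.34%). The counts without overlap given below for single lists stand beside these same shares of all genes. With median-of-ratios scaling 8 were higher and 11 lower without overlap. The median log2 fold change was 0.23, beside 0.17 for all genes tested. List medians depend on the scaling: with median-of-ratios they were -0.18 for NRF2 control, -0.03 for further NRF2 targets, 0.14 for superoxide and copper, 0.01 for peroxisomes, 0.08 for iron and 0.23 for haem, beside 0.01 for all genes.

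Among the partners and competitors of NRF2, 13 of 14 genes were tested, with a median of -0.03. *Cul3*, the scaffold of the ligase that KEAP1 serves, was the gene without overlap, at 12.5, 12.3 and 15.9 FPKM in oEV-EMT and 16.6, 15.98 and 17.3 in oEV-ctrl (log2 fold change -0.28, limma adjusted p = 0.541). *Bach1*, which competes with NRF2 at its sites, overlapped, with a log2 fold change of -0.21. Of the further NRF2 targets 25 of 29 were tested, with a median of 0.15, and 5 were higher without overlap. *Idh1*, which makes cytosolic NADPH, was at 79.6, 93.6 and 62.8 FPKM against 38.4, 45.2 and 52.0 (log2 fold change 0.78, limma adjusted p = 0.174). *Gstm1*, a glutathione transferase with close paralogs, had a log2 fold change of 0.75 (limma adjusted p = 0.263). The glutathione-forming *Gclc* and *Gclm*, textbook NRF2 targets, overlapped between the groups, with log2 fold changes of -0.34 and -0.0048.

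In the list of superoxide and copper genes, 7 of 12 were tested, with a median of 0.33, and 4 were higher without overlap. *Cyba*, a membrane subunit of NADPH oxidases, was at 24.7, 26.2 and 13.7 FPKM in oEV-EMT and 6.46, 8.52 and 9.18 in oEV-ctrl, and its log2 fold change of 1.28 did not pass after adjustment (limma, adjusted p = 0.118). The macrophage marker *Cd68* was also higher without overlap, at 6.24, 12.5 and 14.2 against 3.55, 5.89 and 6.21 FPKM. Of the other listed macrophage markers, *Ptprc* was at 0 in every library. *Lyz2* overlapped between the groups, at 0.537, 0 and 0.128 FPKM in oEV-EMT and 0.268, 0.198 and 0.348 in oEV-ctrl. The part of such cells in the *Cyba* value was not tested. *Atox1*, a copper chaperone, was at 1111, 968 and 1305 FPKM against 654, 873 and 682 (log2 fold change 0.62, limma adjusted p = 0.207). *Ccs*, which loads copper into SOD1, overlapped, with a log2 fold change of 0.36. Of the peroxisomal genes 16 of 17 were tested, with a median of 0.18 and 3 higher without overlap. *Pex14*, part of the import pore through which catalase enters, was at 13.0, 8.68 and 6.92 FPKM against 4.79, 4.28 and 6.34 (log2 fold change 0.75, limma adjusted p = 0.234). *Pecr*, a peroxisomal reductase, had a log2 fold change of 0.57, and *Pex5*, the import receptor, of 0.01 with overlap.

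Of the iron genes 15 of 19 were tested, with a median of 0.27 and 5 higher without overlap. *Slc39a14*, a metal importer, had a log2 fold change of 0.73 (limma adjusted p = 0.233). The transferrin receptor *Tfrc* and the exporter *Slc40a1* overlapped, with log2 fold changes of -0.43 and -0.62. The search for iron-responsive elements found 1 in the 5′ UTR of *Slc40a1*, as in the ferritins, and 4 in the 3′ UTR of *Tfrc*. It looked for a strict pattern of letters, so elements of another form would be missed. All 12 haem genes were tested, with a median of 0.40 and 3 higher without overlap. *Fech*, which inserts iron into protoporphyrin to make haem, was at 9.28, 10.9 and 9.46 FPKM in oEV-EMT and 2.48, 2.61 and 5.58 in oEV-ctrl (log2 fold change 1.32, limma adjusted p = 0.118). *Blvrb*, which encodes biliverdin reductase B, was at 48.9, 77.3 and 75.3 FPKM against 43.3, 32.7 and 48.3 (log2 fold change 0.67, limma adjusted p = 0.246). *Blvra*, which encodes biliverdin reductase A, overlapped, with a log2 fold change of 0.31 (limma adjusted p = 0.480).

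**Figure D4:**
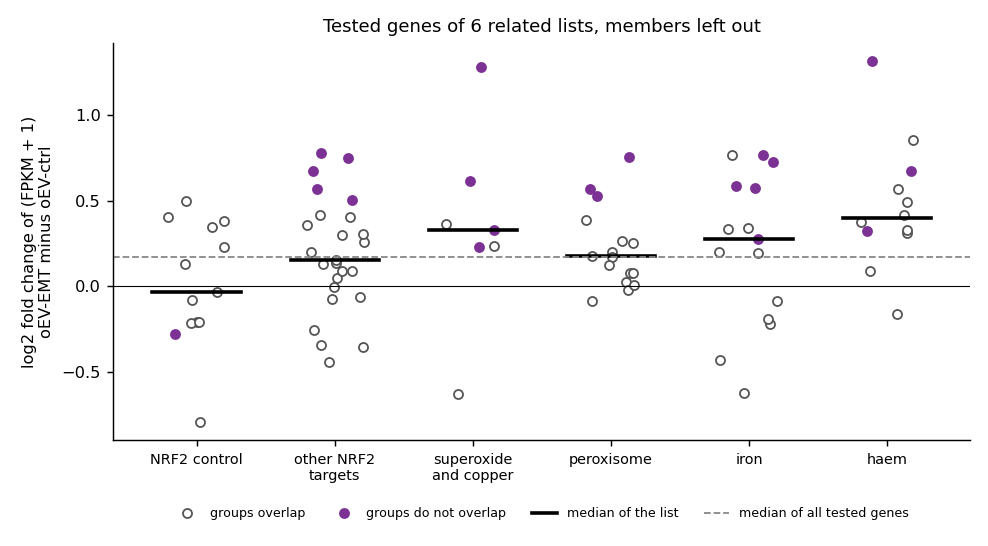
Log2 fold change of (FPKM + 1), oEV-EMT minus oEV-ctrl, for the tested genes of 6 related lists without the 9 genes. Each point is a gene, filled where the groups do not overlap, black bars are list medians and the dashed line is the median of all tested genes, 0.17. The highest points are *Cyba* with 1.28 and *Fech* with 1.32, and sideways position within a list has no meaning.

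The plot of related lists shows genes on both sides of the median of all genes in every list.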

How the data were processed

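RNA of 6 pools of 10 blastocysts was sequenced after selection of polyadenylated RNA. Per the labels, StringTie and mm10 were used, and the aligner is not given in the sources used here. The authors deposited FPKM for 55774 genes and 6 libraries. Their methods speak of TPM, but the sums exceed 1000000 and differ. Genes with at least 1 FPKM in at least 3 libraries were kept, and limma 3.58.1 (R 4.3.3) was run on log2(FPKM + 1) with trended, robust variance and Benjamini-Hochberg adjustment. The procedure was tested on simulated data. For ratios, an exact two-sided permutation test was used (SciPy 1.17.1). A pair of genes shared sequence when at least 10% of the 50-base stretches of either gene occurred in the other, on either strand. Positions are from GENCODE M21 (GRCm38), and plotting used matplotlib 3.10.9 (Python 3.11.15).

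The members and lists were chosen with earlier results of these data known. Named were the 9 members, from each list up to 2 genes per direction with the largest log2 fold change without overlap, and for each member the 2 genes of most similar profile. One gene that the rule names is not reported here. *Hmox2*, *Blvra*, *Bach1*, *Gclc*, *Gclm*, *Ccs*, *Pex5*, *Tfrc*, *Slc40a1* and *Lyz2* were named outside this rule after their values were seen. A working copy of the markers of cells outside the embryo held *Epcam*, which the fixed list does not. It was removed after its values were seen, and with it the 12 genes summed to 325 to 574 FPKM in oEV-EMT and 308 to 407 in oEV-ctrl. Alternatives covered scaling, filter, pseudocount, variance model, library weights, leaving out each library, and a replicate block.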

Additional observations from a re-analysis of the deposited data

How the results depend on the processing

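No member passed both thresholds under any alternative run. *Cat*, *Nfe2l2*, *Hmox1*, *Nqo1* and *Sod1* stayed above 0 and *Sod2* and *Keap1* below 0 in all of them, *Hmox1* between 0.48 and 0.91 with adjusted p (limma) from 0.089 to 0.652. *Fth1* turned to -0.0602 with median-of-ratios and -0.13 with upper quartile scaling. With single libraries left out *Fth1* ranged from -0.00737 to 0.296 and *Ftl1* from -0.211 to 0.0395, and both turned sign without oEV-ctrl replicate 1. Members higher without overlap were 1 with upper quartile scaling (*Hmox1*) and 4 to 5 when single libraries were left out. Members lower without overlap were 0 with FPKM scaled to a sum of 1000000, 3 with median-of-ratios and 3 with upper quartile scaling, and 1 to 2 with single libraries left out. Genes of the related lists higher without overlap were 8 and 6 under median-of-ratios and upper quartile scaling and 21 to 35 with single libraries left out. The lower ones were 11, 10 and 1 to 9, and 0 with a sum of 1000000. Both directions together gave 25 to 36 with single libraries left out. Of all genes tested, 7.59% were higher and 12.5% lower without overlap under upper quartile scaling, and 22.7% and 2.71% with a sum of 1000000. With a library left out, non-overlap is more frequent for all genes, 21.8% to 30.6% higher and 5.89% to 12.6% lower. Of 90 list medians under alternatives, 18 moved by more than 1 SD of the list's mean level between libraries of a group, and that of further NRF2 targets (0.15) was -0.09 with upper quartile scaling and 0.05 without oEV-EMT replicate 1. Over all genes, the count past both thresholds was 0 in the fit as designed, 104 with library quality weights and 0 to 17 with single libraries left out, the 17 without oEV-ctrl replicate 3. Under pseudocounts of 0.1 and 1 the ratios kept their direction. The pseudocount of 1 for ratios was added after seeing the data. *Fth1* to *Ftl1* was -0.05 on the log2 scale without oEV-ctrl replicate 1. The cause of these shifts was not tested.

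The labels number the libraries of both groups alike. Deviations of same-numbered libraries correlated at 0.119, -0.0442 and 0.0388, and not every library correlated best with its own number, so the numbers do not show a pairing. A replicate block gave 21 genes past both thresholds in place of 0, none of them a member.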

Other observations

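Ferritin-like genes beside the members were looked at after their values were seen. *Fthl17a*, an X-linked relative of the ferritin heavy chain, was at 121, 167 and 184 FPKM in oEV-EMT and at 89.0, 122 and 113 in oEV-ctrl, and the groups overlapped (log2 fold change 0.53, limma adjusted p = 0.300). *Ftmt*, the mitochondrial ferritin gene, was listed at 0.

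Genes were also ranked by how closely their log2(FPKM + 1), centred on its own mean, followed each member over the 6 libraries. Of 9687 genes searched, the nearest to *Nqo1* were *Pim2* and *Myc*, with root mean square differences of 0.029 and 0.049. The nearest to *Hmox1* were *Ppp5c* (0.067) and *Ube2v1* (0.069), to *Cat* *Perp* and *Lin52* (0.056 each), and to *Nfe2l2* *Stag3* (0.041) and *Wdr45b* (0.043). *Keap1* was nearest to *Slc35e3* (0.077) and *Mphosph8* (0.078), *Sod1* to *Dpp9* (0.046) and *Mcm5* (0.064), and *Sod2* to *Gars* (0.038) and *Fam241b* (0.058). *Fth1* was nearest to *C2cd2* (0.045) and *Zfp2* (0.060), and *Ftl1* to *Rpl14* (0.034) and *Spsb4* (0.052). With 6 libraries and this many genes some profiles lie close to any gene, and the values are a description.

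Markers of embryonic lineages named by the same rule were *Nanog* and *Fgf4* of the epiblast, higher without overlap with log2 fold changes of 1.11 and 0.99, and *Gata4* and *Sox7* of the primitive endoderm, with 0.82 and 0.52. None passed after adjustment (limma). Over the whole lists, 3 of 8 epiblast and 2 of 8 primitive endoderm markers were higher without overlap and 0 lower. Of all genes, 18.1% were higher and 4.34% lower without overlap. The list medians were 0.20 and 0.04, beside 0.17 for all genes. *Sox2* (-0.32) and *Dab2* (-0.26) had the lowest values of their lists.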
